A study of Oryza sativa with 36 samples.

Results

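The step from floret stage 4 to floret stage 5 in the rice cultivar IR64 was described across all genes. It was read from the 3 stage 5 and the 3 stage 4 libraries of untransformed IR64, 6 of the 36 libraries in the series, which were chosen by their labels. The fit behind its tests took the filter, the scaling and the variation between libraries from all 36. All 6 carry the same genotype and no treatment, and the labels separate the groups by developmental stage alone. They give no harvest day or hour for a library, so anything that varied with collection cannot be told apart from stage. The series also holds IR64 and a line overexpressing OsEPF1, a secreted peptide that limits stomatal number, each at stages 1 to 5 and as mature florets before flowering, with 3 libraries per group. The labels number the stages and give no floret length or organ landmark for them. Developing florets were collected between 75 and 85 days after sowing from plants under a 12 h photoperiod at 30°C in the light and 24°C in the dark, and each library of a developing stage pooled RNA from 3 plants. Mature florets were collected after those days. The labels name neither the promoter that drives OsEPF1 nor the number of independent transgenic events.

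A rice floret forms its hull, lodicules, stamens and pistil from a small meristem, and its anthers then go through a fixed programme. Pollen mother cells replicate their DNA and enter meiosis, in which chromosomes pair along a protein axis, exchange strands and form tetrads of microspores. The tapetum, the innermost layer of the anther wall, feeds these cells, makes precursors of the pollen wall and is then dismantled by programmed cell death under a cascade of transcription factors. Around the anthers the hull expands, turns green, lignifies and takes up silica.

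The 6 libraries held between 23806729 and 30681676 counts assigned to genes. Pairs of libraries of the same IR64 stage correlated at r = 0.976 to 0.991 over log2 CPM, the counts of a gene scaled to the size of its library. In a principal component analysis of the 6 libraries the first component, with 56.8% of the variance, separated the stages. Stage 5 replicate 3 stood apart from the other stage 5 libraries on both components, at 37.2 on the first against 71.5 and 67.7, and at -67.6 on the second. Calls and counts of list genes that change without it are given beside them. The libraries carried the floral identity transcripts of a floret, with MADS1, a SEPALLATA-type factor of the hull, between 686 and 841 CPM, while the late pollen genes SWEET5 and CIN3 had at most 11 counts over 3 libraries.

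Of 26726 genes tested, 2792 changed between stage 4 and stage 5 at an adjusted p under 0.05 (edgeR quasi-likelihood test with Benjamini-Hochberg adjustment), which is 10.4% of the genes tested. The 1639 genes that rose were 6.13% and the 1153 that fell were 4.31%. The genes that rose moved further. Their median log2 fold change was 1.16, against -0.76 for the genes that fell, and 923 genes (3.45%) rose at least 2-fold while 371 (1.39%) fell at least 2-fold. At 8-fold or more the fit called 338 genes higher (1.26%) and 34 lower (0.127%). Of the 338, 84 (24.9%) had no counts in any stage 4 library, so that their fitted folds are set by the model and are not bounds. Of the 923, 172 (18.6%) had at most 3 counts over the 3 stage 4 libraries, those 84 included. The median over all tested genes was 0.00. The count of 2792 fell to 1853 without stage 4 replicate 2 and to 1756 without stage 5 replicate 1, and was 2533 without stage 5 replicate 3.

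**Figure D1:**
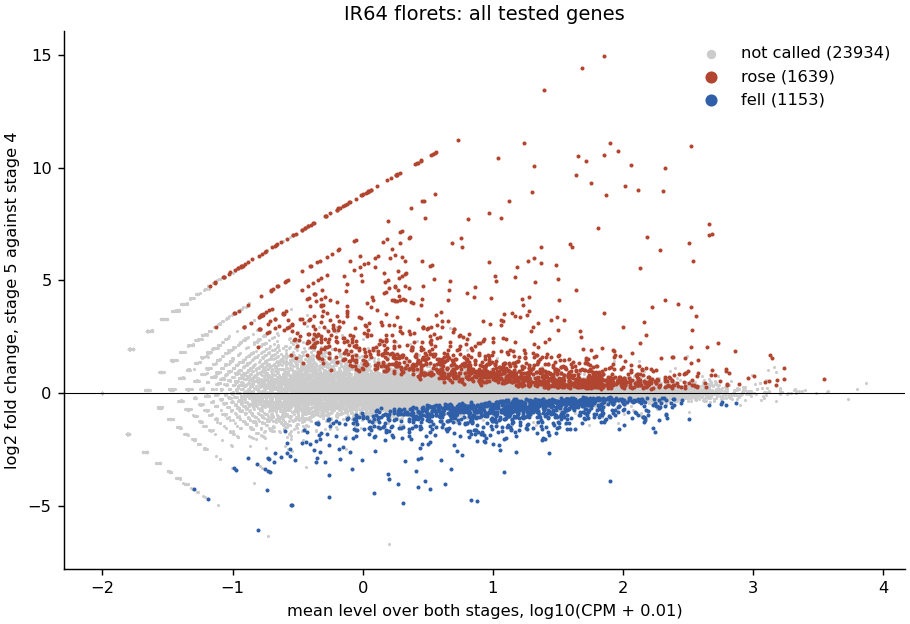
Every tested gene by its mean level over the 6 IR64 libraries (x axis, log10 of CPM plus 0.01) and its log2 fold change between stage 5 and stage 4 (y axis). Red points are the 1639 genes that rose, blue points the 1153 that fell and grey points the rest; the sloping edge at the upper left holds genes with no counts at stage 4, whose folds are set by the fit.

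The genes that rose took up more of the sequencing than those that fell. Genes that rose at least 2-fold held 0.951% to 1.07% of all counts in the stage 4 libraries. In the stage 5 libraries they held 4.66%, 3.87% and 3.1% in replicates 1, 2 and 3. Genes that fell at least 2-fold went from 0.799% to 0.873% at stage 4 to 0.291% to 0.332% at stage 5. These genes were chosen on the same libraries, so the shares are a description. Replicate 1 was the highest and replicate 3 the lowest stage 5 library for 435 of the 923 genes (47.1%), against 15.4% of all tested genes.

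Most of the meiosis genes fell. Of 13 tested, 8 fell and 1 rose, with a median log2 fold change of -1.20, against 0.00 over all genes and 4.31% of all genes falling. In bulk florets, fewer meiocytes and less of these transcripts per meiocyte cannot be told apart. ZEP1 (Os04g0452500), the central element of the synaptonemal complex that zips paired chromosomes together, stood at 36.5, 39 and 39.8 CPM in the stage 4 libraries and at 9.97, 9.75 and 9.37 CPM at stage 5. The groups were far apart and each was tight, with a log2 fold change of -1.99 ± 0.26 (SE, n = 3 per stage; edgeR adjusted p = 3.7e-06). SDS (Os03g0225200), a meiosis-specific cyclin needed for the DNA breaks that start recombination, went from 9.66, 9.01 and 12.8 CPM to 3.28, 2.65 and 2.94 CPM. No stage 5 library came near the stage 4 range, and the log2 change was -1.83 ± 0.26 (edgeR adjusted p = 1.6e-05). PAIR3 (Os10g0405500), a chromosome axis protein, had 18.5, 19.2 and 25.4 CPM and then 6.07, 5.87 and 8 CPM, a log2 change of -1.66 ± 0.19 (edgeR adjusted p = 1e-06). CRC1 (Os04g0479000), another component of the synaptonemal complex, changed by -1.59 ± 0.20 (edgeR adjusted p = 3.8e-06).

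The other meiosis members are named with their values in view. SPO11-1 (-0.24 ± 0.17, edgeR adjusted p = 0.47) and MER3 (-0.95 ± 0.55, edgeR adjusted p = 0.34) did not pass the test, and the MER3 groups overlapped. PAIR2, an axis protein of the HORMA family, was the most abundant, with 141, 135 and 143 CPM at stage 4 and 43, 43.7 and 52.7 CPM at stage 5, a log2 change of -1.59 ± 0.21 (edgeR adjusted p = 4e-06). PAIR1, which acts in break formation, fell by 1.61 on the log2 scale from a low level of 0.923 to 1.81 CPM. DMC1A, the strand-exchange recombinase, fell by 1.20 and HEI10, which marks crossover sites, by 0.56. The crossover gene MSH5 (-0.48 ± 0.20, edgeR adjusted p = 0.14) and the cohesin protector SGO1 (-0.35 ± 0.12, edgeR adjusted p = 0.071) did not pass the test, although their stage 5 libraries all lay below those of stage 4, as did those of 14.1% of all genes tested (16.8% lay above). PSS1, a kinesin needed for male meiosis, was the exception, at 46.5 to 52.6 CPM and then 56.7 to 59.1 CPM, a log2 change of 0.22 ± 0.07 (edgeR adjusted p = 0.027). Its call was lost without stage 4 replicate 1 (adjusted p = 0.31) or 2 (0.068) and without stage 5 replicate 1 (0.1) or 2 (0.08), whereas 8 members were called lower without stage 5 replicate 3 as well.

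The earlier course differed among the genes that fell. ZEP1 had means of 7.03, 7.39 and 16 CPM at stages 1, 2 and 3, so that its 38.5 ± 1.71 CPM (SD, n = 3) at stage 4 was the highest of the series in IR64, and PAIR2 likewise went from 11.3 CPM at stage 1 to 140 CPM at stage 4. CRC1 was at its highest at stage 1, at 16.8 CPM, and was lower at every later developing stage. PAIR3 had similar means of 21 to 29.3 CPM at all stages up to 4 and 6.65 CPM at stage 5. In mature florets these 4 genes stood at 1.68 to 5.36 CPM. Of the 371 genes that fell at least 2-fold, 160 (43.1%) had their highest developing mean at stage 4 and 124 (33.4%) at stage 1, against 12.7% and 33.9% of all tested genes. The first of these shares is partly fixed by the choice of genes that fell.

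**Figure D2:**
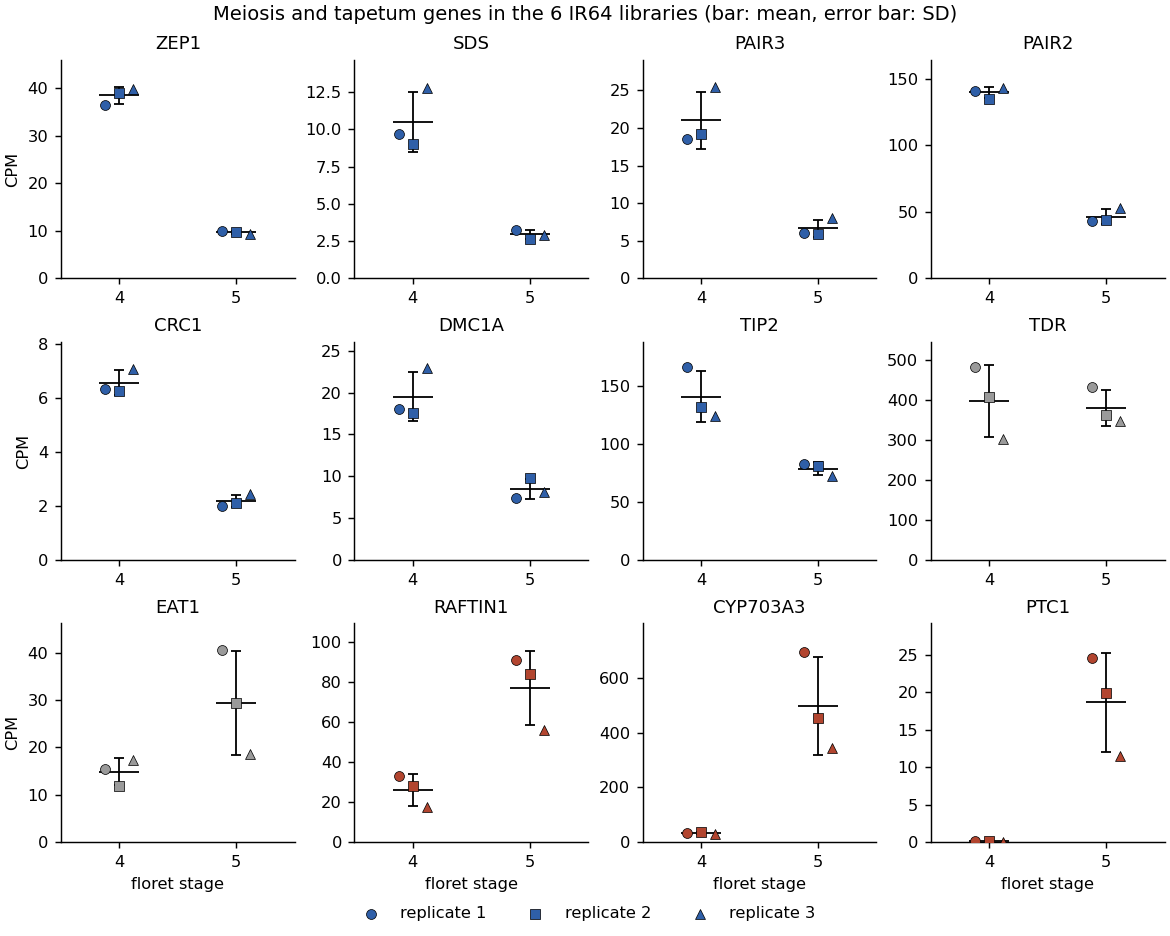
CPM of 6 meiosis genes and 6 tapetum genes in each of the 6 IR64 libraries, by floret stage (x axis) on a linear scale from 0 (y axis); marker shape is the replicate, the bar the mean and the error bar the SD. Blue genes fell, red genes rose and grey genes did not pass the test; PTC1 is at 0.0317 to 0.106 CPM at stage 4 and 11.5 to 24.6 CPM at stage 5.

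Of the 7 tapetum regulators tested, 1 rose and 2 fell, and of the 5 pollen wall and tapetum enzymes 2 rose and none fell, against 6.13% of all tested genes rising and 4.31% falling. PTC1 (Os09g0449000), a PHD-finger protein that controls tapetal cell death and pollen wall formation, was nearly absent at stage 4, with 0.0692, 0.106 and 0.0317 CPM and 6 counts in all. At stage 5 it reached 24.6, 19.9 and 11.5 CPM, a log2 change of 8.01 ± 1.17 (SE, n = 3 per stage; edgeR adjusted p = 2.6e-05). CYP703A3 (Os08g0131100), a cytochrome P450 that hydroxylates fatty acids for anther cutin and pollen wall sporopollenin, stood at 31.8, 34.7 and 28.4 CPM and then at 693, 454 and 343 CPM. The lowest stage 5 library was far above the highest at stage 4, and the log2 change was 3.97 ± 0.49 (edgeR adjusted p = 2.6e-06). Without stage 5 replicate 3, the lowest for both genes, the changes were 8.26 for PTC1 and 4.18 for CYP703A3. RAFTIN1 (Os08g0496800), a tapetum protein needed for pollen maturation, went from 33.1, 28 and 17.3 CPM to 90.9, 83.9 and 55.8 CPM, by 1.56 ± 0.47 (edgeR adjusted p = 0.03). That call was lost without any one of the 3 stage 4 libraries, at adjusted p = 0.051, 0.083 and 0.15 without replicates 1, 2 and 3. It was also lost without stage 5 replicate 1 (adjusted p = 0.11) or 2 (0.081).

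TIP2 (Os01g0293100), a basic helix-loop-helix factor of early tapetum differentiation, moved the other way, from 166, 132 and 124 CPM to 82.3, 81.1 and 72.4 CPM, a log2 change of -0.84 ± 0.17 (edgeR adjusted p = 0.0013). TDR, its partner in the tapetum cascade, had 303 to 482 CPM at stage 4 and 347 to 433 CPM at stage 5, with overlapping groups and a change of -0.06 ± 0.24 (edgeR adjusted p = 0.95). EAT1, which acts later and promotes tapetal cell death, had a mean of 14.9 ± 2.75 CPM (SD, n = 3) at stage 4 and then 40.6, 29.3 and 18.6 CPM. Its change of 0.99 ± 0.41 did not pass the test (edgeR adjusted p = 0.14). API5, an apoptosis inhibitor homologue of the tapetum, changed by -0.28 ± 0.07 (edgeR adjusted p = 0.012), a call lost without stage 5 replicate 2 (adjusted p = 0.055). The pollen wall and tapetum enzymes not called included the cysteine protease CP1, at 0.39 to 0.476 CPM and then 0.937 to 2.72 CPM (2.01 ± 0.71, edgeR adjusted p = 0.068), and the aspartic protease AP25, at 138 to 147 CPM and 139 to 157 CPM.

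Summed over the 5 enzymes, the stage 4 libraries held 185 to 213 CPM and stage 5 replicates 1, 2 and 3 held 933, 697 and 539 CPM. The sum of the 13 meiosis genes was 358 to 394 CPM at stage 4 and 192, 192 and 206 CPM at stage 5. By these sums replicate 3 was the stage 5 library nearest to stage 4 for both lists. The differences among the stage 5 sums came largely from CYP703A3 for the enzymes and from PAIR2 for meiosis. Meiosis members varied, and ZEP1 and SDS, among others, were not highest in replicate 3 at stage 5. The late pollen list was at or near 0 in every library, with 0 counts for both genes at stage 4 and 11 counts of SWEET5 over the stage 5 libraries. In mature florets PTC1 and CYP703A3 stood at 0.0329 and 0.651 CPM, while RAFTIN1 remained at 61.5 ± 24.2 CPM (SD, n = 3). Of the 923 genes that rose at least 2-fold, 463 (50.2%) had their highest IR64 mean at stage 5, against 15.5% of all tested genes, a difference that the choice of genes that rose favours. Of these 463, 229 (49.5%) had a mean below 10% of that level in mature florets, a share that was not set against that of other genes.

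The germ cell list had 2 members that could be matched. MSP1 (Os01g0917500), a receptor kinase that limits how many cells become sporocytes, went from 90.9, 98.7 and 105 CPM to 64.9, 65.9 and 79.6 CPM, by -0.49 ± 0.13 (edgeR adjusted p = 0.013). The call was lost without stage 4 replicate 3 (adjusted p = 0.071) and without stage 5 replicate 1 (0.083) or 2 (0.068). MEL1, a germline Argonaute, changed by -0.61 ± 0.24 (edgeR adjusted p = 0.1).

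Genes of DNA replication and cell division fell. All 8 replication genes tested had a negative log2 fold change and 7 passed the test, against 4.31% of all tested genes falling. The median was -0.79, against 0.00 over all genes. ORC1 (Os06g0187000), a subunit of the complex that marks replication origins, stood at 20.5, 21.3 and 26.4 CPM and then at 9.71, 8.01 and 14.6 CPM. No stage 5 library reached the stage 4 range, and the log2 change was -1.08 ± 0.20 (edgeR adjusted p = 0.00052). MCM3 (Os05g0476200), a subunit of the replicative helicase, went from 39, 37.2 and 40.3 CPM to 19.7, 18.9 and 21.8 CPM, by -0.95 ± 0.18 (edgeR adjusted p = 0.0007). MCM2 and MCM6 each changed by -0.84, and MCM4, MCM5 and MCM7, named with their values in view, by -0.74, -0.66 and -0.56. PCNA, the sliding clamp, was at 64.9 to 71.6 CPM and then 48.1 to 54.3 CPM without passing the test (-0.43 ± 0.18, edgeR adjusted p = 0.15). The count of 7 fell to 4 without stage 4 replicate 3 and to 3 without stage 5 replicate 1, where MCM2 (adjusted p = 0.061) and MCM6 (0.092) were among the calls lost, and was 5 without stage 5 replicate 3.

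Of 7 mitosis genes tested, 4 fell and 1 rose, against 4.31% of all tested genes falling and 6.13% rising. CDKB2-1 (Os08g0512600), a kinase of the G2-to-M transition, stood at 68.8, 64.7 and 65.3 CPM at stage 4 and at 34.5, 41.2 and 33 CPM at stage 5, a log2 change of -0.87 ± 0.15 (edgeR adjusted p = 0.00024). The B-type cyclins CYCB1-1 (-0.55 ± 0.13), CYCB2-1 (-0.50 ± 0.14) and CYCB2-2 (-0.55 ± 0.18) fell less, with edgeR adjusted p = 0.0048, 0.017 and 0.049. CYCB2-2 lost its call without any one of the 6 libraries, with RLE or upper-quartile scaling and with other filters on low counts. CYCB2-1 lost it without stage 4 replicate 1 (adjusted p = 0.05) or 2 (0.064) and without stage 5 replicate 1 (0.071) or 3 (0.057). CYCB1-3 (Os01g0281200) rose, from 5.27 to 12.7 CPM to 16.2 to 24.5 CPM (1.02 ± 0.26, edgeR adjusted p = 0.01), a call lost without stage 4 replicate 3 (adjusted p = 0.093) or stage 5 replicate 3 (0.071). The count of 4 that fell was 2 without any of those 4 libraries. CDKB1-1 and the kinase inhibitor KRP1 did not pass the test, although KRP1 was called without stage 5 replicate 3 (0.36, adjusted p = 0.024). These falls continued a longer course. MCM3 had means of 199, 148 and 85 CPM at stages 1, 2 and 3 and 38.8 and 20.1 CPM at stages 4 and 5, and CDKB2-1 went from 257 CPM at stage 1 to 66.3 and 36.2 CPM.

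**Figure D3:**
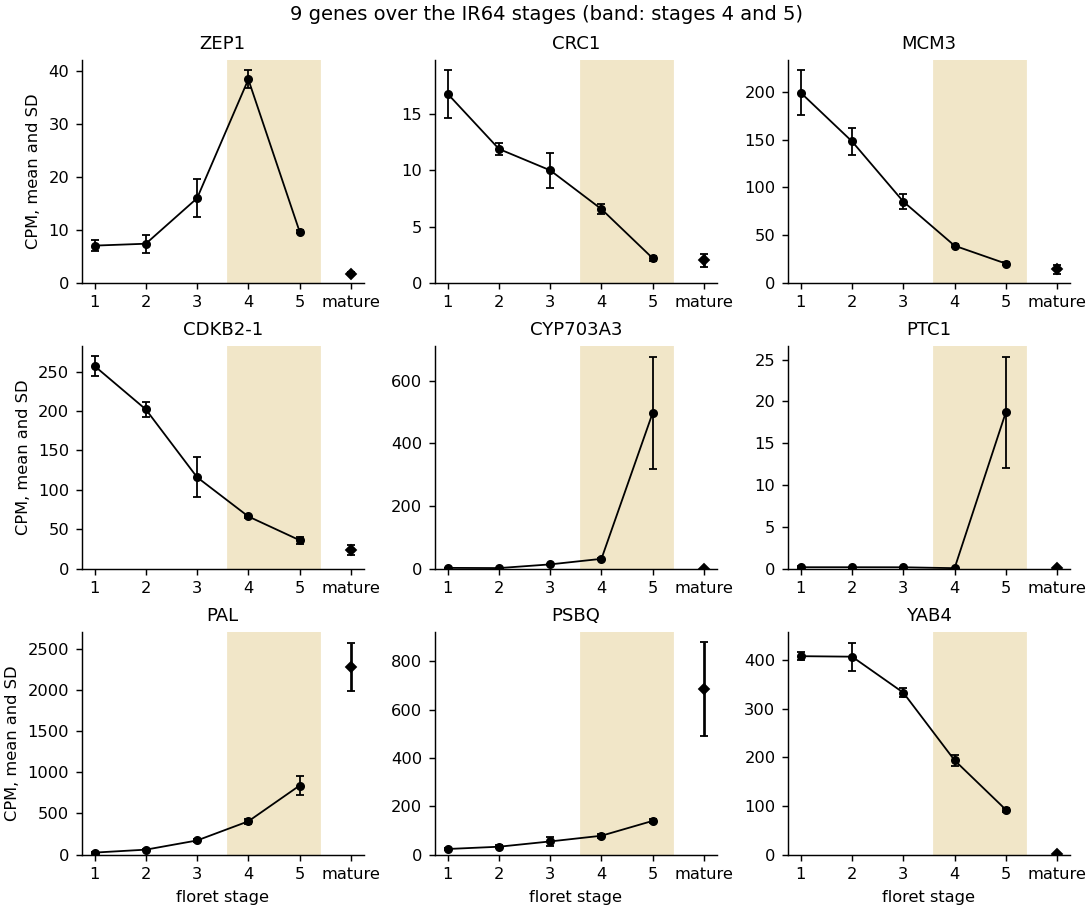
Mean CPM with SD (n = 3 libraries) of 9 genes over IR64 floret stages 1 to 5, joined by a line, and in mature florets, shown as a diamond; the y axes are linear, start at 0 and differ between genes. ZEP1 is highest at stage 4, CYP703A3 and PTC1 stand out at stage 5, MCM3, CDKB2-1, CRC1 and YAB4 are lower at each stage from 3 to 5, and PAL and PSBQ are highest in mature florets.

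Of 7 photosystem and electron transport genes 2 rose, against 6.13% of all tested genes, and all 7 had positive changes with a median of 0.77. PSBQ (Os07g0544800), an extrinsic protein of the oxygen-evolving complex, had 88.1, 72.6 and 74.7 CPM and then 150, 139 and 130 CPM (0.83 ± 0.22, edgeR adjusted p = 0.013). PETE (Os06g0101600), plastocyanin, had 83, 61.1 and 68.8 CPM and then 122, 112 and 111 CPM (0.70 ± 0.18, edgeR adjusted p = 0.011). The antenna gene CAB2R was the most abundant, at 751 to 928 CPM and then 1620 to 1800 CPM, and did not pass the test (1.02 ± 0.41, edgeR adjusted p = 0.13). CAB1R, at 255 to 373 CPM and then 471 to 590 CPM, did not pass it either (0.77 ± 0.38, edgeR adjusted p = 0.23). Antenna genes have close copies, between which the counting could split reads. Fitted with the replicate number as a block, 4 photosystem genes rose, CAB2R among them (adjusted p = 0.047). The count was 0 without stage 4 replicate 2 and without stage 5 replicate 1, and 1 without stage 4 replicate 3.

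The 3 Calvin cycle genes that could be matched all rose by a similar amount, against 6.13% of all tested genes rising. RCA, the activase of Rubisco, had 44.6, 31.2 and 44.6 CPM and then 62.5, 48.1 and 66.6 CPM (0.56 ± 0.17, edgeR adjusted p = 0.036). FDA, an aldolase of the plastid, changed by 0.56 ± 0.16 (edgeR adjusted p = 0.019) and FBPASE, fructose bisphosphatase, by 0.58 ± 0.15 (edgeR adjusted p = 0.011). None of the 3 was called without stage 4 replicate 2 or without stage 5 replicate 1, and 1 was called without stage 5 replicate 3. None of 11 chlorophyll genes passed the edgeR test, 2 had an unadjusted p under 0.05 and DESeq2 and the replicate block each called 1. CHLH, a subunit of the chelatase that starts chlorophyll synthesis, had overlapping groups at 82.3 to 111 and 78.3 to 139 CPM. PORA, a protochlorophyllide reductase, had 348, 258 and 477 CPM and then 535, 381 and 731 CPM (0.61 ± 0.36, edgeR adjusted p = 0.36). The levels at stage 5 were still far from those of mature florets, where PSBQ had a mean of 685 CPM and RCA of 3680 CPM.

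Of 17 cell wall and lignin genes, 4 rose and none fell, against 6.13% of all tested genes rising and 4.31% falling, and the median log2 fold change was 0.69. Without stage 5 replicate 3 the count that rose was 5. PAL (Os02g0626100), which makes cinnamic acid at the entry of the pathway, had 433, 374 and 408 CPM and then 935, 712 and 866 CPM (1.05 ± 0.25, edgeR adjusted p = 0.006). The coenzyme A ligase gene 4CL4 had 10.2 to 11.7 CPM and then 16.6 to 19.8 CPM (0.69 ± 0.15, edgeR adjusted p = 0.002), and 4CL1, named with its values in view, went from at most 0.0692 CPM to 0.261 to 0.471 CPM. CESA1, a cellulose synthase of the primary wall, had 1100, 1220 and 1220 CPM and then 1370, 1110 and 1650 CPM (0.22 ± 0.21, edgeR adjusted p = 0.62), and CESA6 overlapped between the stages as well (0.10 ± 0.23, edgeR adjusted p = 0.88). LSI6 (Os06g0228200), a silicon channel that unloads silica from the xylem, rose from 5.82, 4.93 and 5.36 CPM to 12.4, 12.1 and 11.4 CPM (1.15 ± 0.22, edgeR adjusted p = 0.00056). The calls of PAL, 4CL4 and LSI6 held without any 1 of the 6 libraries.

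Expansins, which loosen the wall of growing cells, moved in both directions. Of 15 tested, 5 rose and 1 fell, against 6.13% of all tested genes rising and 4.31% falling. The beta-expansin EXPB3 (Os10g0555900) went from 6.79, 7.45 and 7.62 CPM to 32, 24.1 and 25.1 CPM (1.89 ± 0.32, edgeR adjusted p = 0.00018). EXPA16 had 59.5 to 65 CPM and then 86.2 to 98.1 CPM (0.56 ± 0.10, edgeR adjusted p = 0.00048), and EXPA10 22.3 to 23.2 CPM and then 27.4 to 32.1 CPM (0.41 ± 0.08, edgeR adjusted p = 0.001). EXPA7, at 130 to 134 CPM and then 163 to 204 CPM, was called (0.51 ± 0.16, edgeR adjusted p = 0.039), as was the low EXPB6, which is named with its values in view. EXPA6 moved the other way, from 98.7, 110 and 102 CPM to 58.5, 74.2 and 54.6 CPM (-0.73 ± 0.16, edgeR adjusted p = 0.0033). The 5 calls became 3 without stage 4 replicate 1, 2 or 3 and without stage 5 replicate 1 or 2, EXPA7 being lost at adjusted p = 0.1 to 0.15. The most abundant member, EXPB4, at 304 to 347 CPM and then 328 to 424 CPM, did not pass the test.

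The 14 aquaporins had a median of 0.53 over the 13 with more than 3 counts, and 2 rose, against 6.13% of all tested genes, or 3 without stage 5 replicate 3. PIP2-2 had 11.3, 6.57 and 7.77 CPM and then 26.3, 18.2 and 23.8 CPM (1.41 ± 0.32, edgeR adjusted p = 0.0037). PIP1-3 had 1.56 to 1.97 CPM and then 3.19 to 6.55 CPM (1.35 ± 0.38, edgeR adjusted p = 0.018), a call lost without stage 4 replicate 1 (adjusted p = 0.09) or 2 (0.069) and without stage 5 replicate 1 (0.2). The most abundant water channels, PIP1-1 and PIP2-1, at 1790 to 2460 CPM over the 6 libraries, did not pass the test. With the replicate block 5 aquaporins rose, and by DESeq2 6 did.

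**Figure D4:**
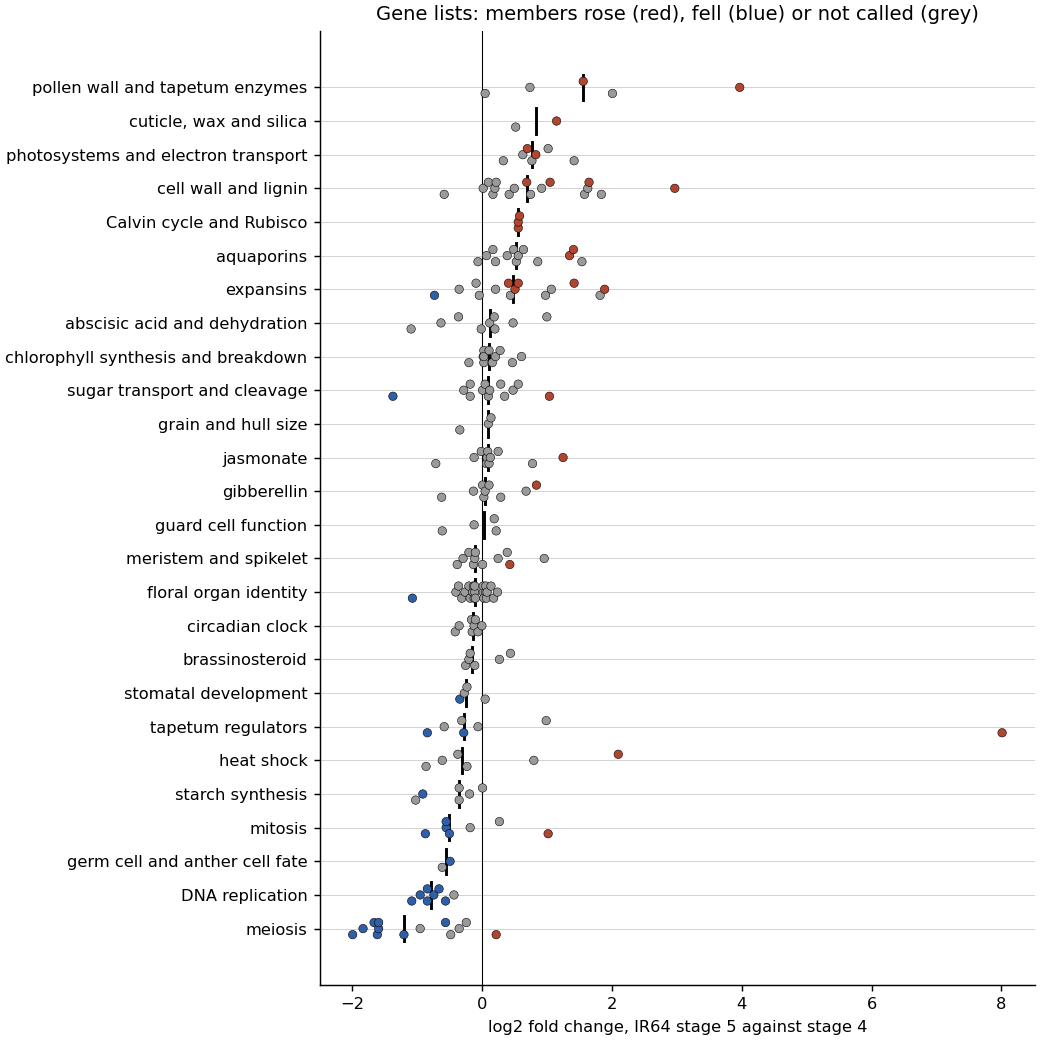
Log2 fold change between IR64 stage 5 and stage 4 (x axis) of each list member with more than 3 counts in either stage and at least 1 count in both, by list (y axis), with the list median as a vertical bar; red members rose, blue members fell and grey members did not pass the test. The meiosis and DNA replication lists lie to the left, the pollen wall, photosystem and lignin lists to the right, and floral organ identity and the clock near 0.

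Few genes that set organ identity were called, which was also so for all tested genes, of which 6.13% rose and 4.31% fell. Of 23 identity genes tested, 22 did not pass the test and 1 fell. The median was -0.11, against 0.00 over all genes. MADS1 differed by 0.14 ± 0.09 (edgeR adjusted p = 0.37) and YAB1 by 0.07 ± 0.11 (edgeR adjusted p = 0.79). YAB4 (Os02g0643200), a YABBY factor described in rice vascular tissue, was the 1 member called, from 192, 183 and 206 CPM to 88.1, 94.5 and 94.9 CPM. Its groups were tight and separate, with a log2 change of -1.07 ± 0.12 (edgeR adjusted p = 6.3e-07). The fall was 1 step of a longer one, from 408 CPM at stage 1 to 2.18 CPM in mature florets. With the replicate block, 2 members of the list fell. Of 11 meristem and spikelet genes, LOG, which activates cytokinin, rose from 18.7, 19.7 and 16.3 CPM to 27.8, 22.9 and 23 CPM (0.43 ± 0.13, edgeR adjusted p = 0.026), a call lost without stage 4 replicate 1 (adjusted p = 0.076) or 3 (0.15) and without stage 5 replicate 1 (0.18). SPL16, a grain width regulator, and FON1, a receptor that limits the floral meristem, did not pass the test. Neither did any of the 3 grain and hull size genes, GW2 at 62.7 to 74.2 CPM and RGA1 at 55.6 to 71.6 CPM among them. Of that list 1 member had an unadjusted p under 0.05, 0 were called by DESeq2 and 1 fell with the replicate block.

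Sugar and starch genes were called singly, where 6.13% of all tested genes rose and 4.31% fell. Of 13 sugar genes 1 rose and 1 fell, which is near those shares, and without stage 5 replicate 3 the count that rose was 2. SWEET15 (Os02g0513100), a sucrose exporter, rose from 33.1, 27 and 24.5 CPM to 65, 57.8 and 51.5 CPM (1.04 ± 0.26, edgeR adjusted p = 0.0067). SUS4, a sucrose synthase, fell from 4.92, 6.78 and 6.32 CPM to 2.34, 1.89 and 2.77 CPM (-1.37 ± 0.27, edgeR adjusted p = 0.00088). The abundant SUS1, at 394 to 428 CPM and then 426 to 634 CPM, and the exporter SWEET11, at 148 to 205 CPM and then 152 to 166 CPM, overlapped between the stages. Of 6 starch genes, the starch synthase SSIIA was called lower, from 10.3 to 15.4 CPM to 6.64 to 7.52 CPM (-0.91 ± 0.27, edgeR adjusted p = 0.029). Its call was lost without stage 4 replicate 1 or 2 and without stage 5 replicate 1, 2 or 3, at adjusted p of 0.073 to 0.11.

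Hormone lists held few calls, which was also so for all tested genes, of which 6.13% rose and 4.31% fell. None of 6 brassinosteroid and 10 abscisic acid genes passed the edgeR test, where 1 of each list had an unadjusted p under 0.05 and DESeq2 called 0, BRI1, the brassinosteroid receptor, at 265 to 286 CPM and then 206 to 259 CPM among them (-0.25 ± 0.11, adjusted p = 0.2). Of 9 gibberellin genes, KAO, an oxidase of gibberellin synthesis, rose from 3.12, 3.37 and 3.21 CPM to 5.77, 6.85 and 4.64 CPM (0.84 ± 0.21, edgeR adjusted p = 0.008), a call lost without stage 4 replicate 1 (adjusted p = 0.05) or stage 5 replicate 2 (0.067). Of 11 jasmonate genes, AOS2, an allene oxide synthase that makes jasmonate precursors, rose from 2.15, 2.84 and 2.19 CPM to 6.18, 6.27 and 4.55 CPM (1.25 ± 0.38, edgeR adjusted p = 0.034). That call was lost without any one of the 3 stage 4 libraries and without stage 5 replicate 1 or 2, at adjusted p of 0.064 to 0.14. Of 4 SHORTROOT and SCARECROW genes of the stomatal list that could be matched, SCR1 alone was called (-0.34 ± 0.11, edgeR adjusted p = 0.042), with overlapping groups at 32.3 to 36.3 and 24.9 to 32.6 CPM. It was not called without stage 4 replicate 1 or 3 or without stage 5 replicate 1 or 2, nor with RLE scaling or a fit on the IR64 libraries or the compared libraries only. Of 4 guard cell genes, 0 passed the edgeR test, 0 had an unadjusted p under 0.05 and 0 were called by DESeq2.

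Heat shock and clock genes bear on handling and on the time of harvest. Among all tested genes 6.13% rose and 4.31% fell. Of 6 heat shock genes, HSP18.1 (Os03g0267000), a small chaperone, rose from 1.59, 2.66 and 2.06 CPM to 6.92, 15.7 and 4.51 CPM (2.1 ± 0.36 on the log2 scale, edgeR adjusted p = 0.00018). Its neighbour Os03g0266900, another small chaperone with a similar sequence so that reads could be split between them, had 3.08 to 4.13 and 2.64 to 3.28 CPM and was not called. HSP101, a chaperone that resolves protein aggregates, had 90.1, 67.3 and 68 CPM and then 61.6, 37.4 and 48.4 CPM (-0.61 ± 0.21, edgeR adjusted p = 0.063). It was called lower with the replicate block (adjusted p = 0.0045) and without stage 5 replicate 1 (0.033). None of 8 clock genes passed the edgeR test between the stages (0 at an unadjusted p under 0.05, 0 by DESeq2), but GI and LHY differed between replicates of the same stage. GI, an evening gene, stood at 270, 633 and 148 CPM in stage 4 replicates 1, 2 and 3 and at 288, 551 and 170 CPM in stage 5 replicates 1, 2 and 3. LHY, a morning gene, was lowest in replicate 2, at 291 and 208 CPM, against 570 to 850 CPM in the other 4 libraries. GI levels were thus similar in libraries that share a replicate number, and LHY was low in replicate 2 of both stages. The part of harvest time in other differences between replicates was not tested.

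Outside the lists, the count table gives IDs without names. The 2 genes with the largest fitted rise among those with a mean of at least 20 CPM had no counts at stage 4. Os07g0599300 had 0 counts at stage 4 against 192, 145 and 88.3 CPM at stage 5 (edgeR adjusted p = 0.0011). It was 4260-fold higher when 3 counts are taken as the floor over the stage 4 libraries, with a lower 95% limit of 3460 from counting error alone. Os07g0556800 stood at 161, 88 and 43.8 CPM at stage 5 (edgeR adjusted p = 0.0094), a call lost when only the libraries compared or only developing libraries were fitted. It was 2950-fold higher on the same floor, with a lower limit of 2400. Both were highest in replicate 1 and lowest in replicate 3. Above the same mean level and with groups that do not overlap, the largest falls were those of Os06g0574900, from 149, 125 and 172 CPM to 9.12, 13.3 and 7.24 CPM (-3.91 ± 0.54, edgeR adjusted p = 1.2e-05), and of Os12g0618000, from 44.8, 43.7 and 50.8 CPM to 5.47, 7.07 and 9.32 CPM (-2.67 ± 0.44, edgeR adjusted p = 0.00016).

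The same step was taken by the OsEPF1 overexpressing line in its own libraries. There 2066 genes changed (7.73%; edgeR), 1215 higher (4.55%) and 851 lower (3.18%). Of the 1639 genes that rose in IR64, 735 also rose in OsEPF1-oe, which is 44.8% of the IR64 list and 60.5% of the OsEPF1-oe list, and none fell there. Of the 1153 that fell in IR64, 538 also fell, 46.7% and 63.2% of the lists, and 11 rose. The steps of both lines came from the same fit to all 36 libraries, with a shared filter, scaling and estimate of the variation between libraries. The lists were therefore not derived independently. When only the libraries compared were fitted, the OsEPF1-oe step called 1122 genes and the IR64 step 3175. A call in IR64 and none in OsEPF1-oe does not show that the lines differed. The test of the difference itself called 126 genes (0.471%). The change was more positive in OsEPF1-oe for 80 of them and more negative for 46. The count depended on single libraries, from 52 without IR64 stage 5 replicate 1 to 256 without OsEPF1-oe stage 5 replicate 1, and was 13 when only the 12 libraries compared were fitted.

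Of 54 list genes called in the IR64 step, 50 had the same sign in OsEPF1-oe, as did 95.3% of all genes that rose in IR64 and 92.4% of all that fell, and 39 were called there too, 21 of them without OsEPF1-oe stage 5 replicate 1. The step differed between the lines for 2 list genes, CYCB1-3 and HSP18.1. CYCB1-3 started lower in OsEPF1-oe, at 2.04, 1.02 and 1.57 CPM at stage 4, and reached 18.4, 18.5 and 15.4 CPM at stage 5, close to the 16.2 to 24.5 CPM of IR64. Its log2 change was 3.49 ± 0.30 there and 1.02 ± 0.26 in IR64, a difference of 2.48 ± 0.39 (edgeR adjusted p = 0.0011). HSP18.1 stood at 1.35, 1.26 and 1.22 CPM and then at 0.8, 0.939 and 0.818 CPM in OsEPF1-oe, a change of -0.58 ± 0.41, so that the step differed by -2.68 ± 0.54 (edgeR adjusted p = 0.015). Both calls were lost when only the 12 libraries compared were fitted (edgeR adjusted p = 0.094 for CYCB1-3 and 0.11 for HSP18.1). The call of HSP18.1 was also lost without IR64 stage 4 replicate 1 (adjusted p = 0.068), IR64 stage 5 replicate 2 (0.071) or OsEPF1-oe stage 5 replicate 3 (0.055).

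For PTC1 and CYP703A3 the OsEPF1-oe step rested on 1 library, and for RAFTIN1 it did not. CYP703A3 had 22.6, 20.9 and 15.9 CPM at stage 4 and 198, 41.7 and 22.9 CPM at stage 5 replicates 1, 2 and 3 of OsEPF1-oe, against 343 to 693 CPM at stage 5 in IR64. PTC1 had 8.08 CPM in OsEPF1-oe stage 5 replicate 1, and 0.0939 and 0 CPM in replicates 2 and 3. Their log2 changes in OsEPF1-oe were 3.68 ± 1.02 for PTC1 (edgeR adjusted p = 0.022) and 2.15 ± 0.46 for CYP703A3 (edgeR adjusted p = 0.0028), and without OsEPF1-oe stage 5 replicate 1 they were -2.23 (adjusted p = 0.27) and 0.70 (adjusted p = 0.21). RAFTIN1 had 7.88, 6.89 and 5.89 CPM and then 35.7, 31.9 and 19.1 CPM in OsEPF1-oe (2.07 ± 0.49, edgeR adjusted p = 0.0073), and 1.88 (adjusted p = 0.04) without that library. The difference of the step between the lines was -4.33 ± 1.69 for PTC1 (edgeR adjusted p = 0.56) and -1.83 ± 0.62 for CYP703A3 (edgeR adjusted p = 0.37), neither of which passed the test. EAT1 had 25.6, 31 and 26.5 CPM and then 12.4, 9.34 and 11.3 CPM in OsEPF1-oe, a fall of 1.33 ± 0.42 on the log2 scale (edgeR adjusted p = 0.047) where IR64 had 0.99 ± 0.41, and the difference did not pass the test (-2.31 ± 0.58, edgeR adjusted p = 0.079). ZEP1 fell by 0.98 ± 0.25 (edgeR adjusted p = 0.011) and PAIR2 by 0.72 ± 0.20 (edgeR adjusted p = 0.024) in that line, calls that were lost without OsEPF1-oe stage 5 replicate 1 (-0.74 at adjusted p = 0.11 and -0.50 at adjusted p = 0.2). SDS fell by 1.97 ± 0.26 (edgeR adjusted p = 9e-06), and by 1.63 without that library (adjusted p = 3.7e-05).

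**Figure D5:**
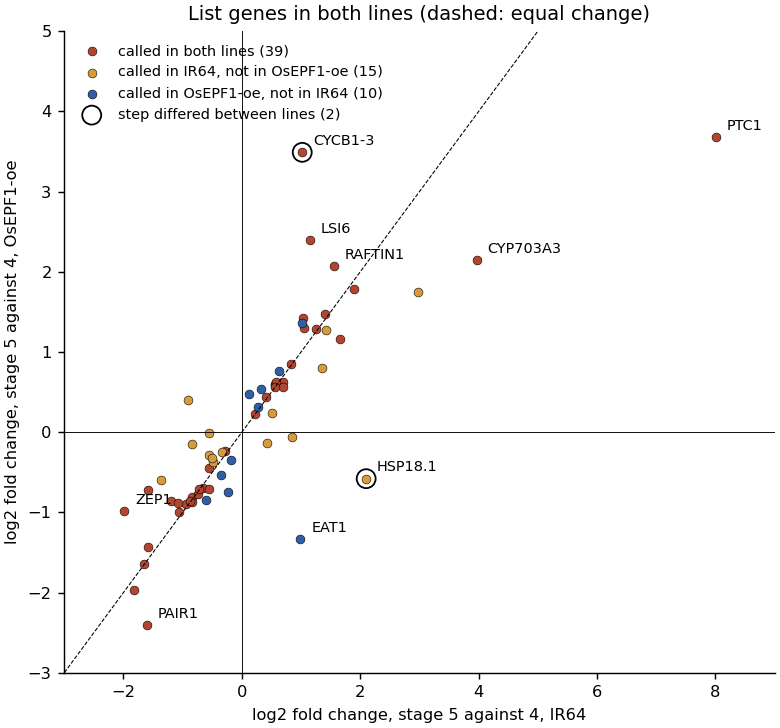
Log2 fold change between stage 5 and stage 4 in IR64 (x axis) and in OsEPF1-oe (y axis) for the 64 list genes with counts in all 4 groups that were called in either line; the dashed line marks equal change. Red points were called in both lines, orange in IR64 and not in OsEPF1-oe, blue in OsEPF1-oe and not in IR64, and the 2 circled genes, CYCB1-3 and HSP18.1, are those for which the step differed between the lines.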

How the data were processed

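RNA from IR64 and OsEPF1-oe florets was sequenced as poly(A)-enriched libraries, per the labels' protocols. The authors deposited 1 table of raw read counts per gene for 36 libraries. The submitters' processing notes name Trimmomatic 0.38, HISAT2 2.1.0, featureCounts and Subread 2.0.0 and the genome build IRGSP-1.0. Neither the strand setting nor the treatment of multi-mapping reads is stated, so genes with close copies or overlapping partners are uncertain. All columns matched a library by title.

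Counts were fitted with edgeR 4.0.16 in R 4.3.3 (robust quasi-likelihood, TMM scaling, filterByExpr, 12 group means over 36 libraries, 24 residual degrees of freedom). The contrasts were stage 5 minus stage 4 in IR64, the same in OsEPF1-oe, and the difference of the 2. Benjamini-Hochberg adjustment ran over the 26726 genes tested and a call is an adjusted p under 0.05. Levels are CPM on TMM-scaled library sizes and are not divided by gene length. SE is the log2 fold change over the square root of F. Where a stage had 0 counts, 3 counts over its libraries served as the floor, which covers counting error only. Counts of 25833 genes were also simulated, with the same mean for a gene in all groups and libraries drawn independently. A small share of the genes, all of at least 2 CPM, was changed at stage 5 of IR64. The fit recovered 75% of the 2-fold and 93% of the 4-fold changes, with 15 false calls. So few genes were changed that the 15 made up more than 0.05 of the simulated calls, the share the adjustment aims to stay under. Deviations shared by libraries of the same replicate number were not simulated, so real error rates can differ.

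The comparison and the gene lists were chosen with earlier results of these data known. The 27 lists hold 375 entries written from general knowledge of rice. An entry was kept, for 239, only if the RefSeq gene table (assembly ASM3414082v1) lists its symbol on that chromosome within 0.02 of its relative position, since 1 of 37862 IDs appears there as such. Of the 239, 11 had too few counts to be tested. Named are, per list, up to 4 called members per direction with at least 2 CPM and libraries that do not overlap, the 2 most abundant members not called, and 2 genes per direction by ID with at least 20 CPM. Any other name was chosen after its values were seen. One named result is not reported here.

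Same-numbered IR64 libraries deviated together (correlations of 0.196, 0.228 and 0.453 of their deviations from the stage means), so the replicate block was treated as a pairing found in the data, as the labels do not say what the numbers share. IR64 pairs of different numbers had correlations from -0.298 to 0.141, so the pattern by number is not sharp. In OsEPF1-oe the same-numbered pairs had 0.268, 0.244 and 0.0057. Each developing library is a separate pool of 3 plants. The alternatives tried were DESeq2 1.42.0, scaling by RLE or by the upper quartile, other filters, other sets of libraries, the replicate block, a test against 2-fold, and leaving out each library. Figures were drawn with matplotlib.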

Additional observations from a re-analysis of the deposited data

Results flagged for a closer look

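The step from stage 4 to stage 5 differed between the lines, by the test of the difference itself (edgeR quasi-likelihood test, OsEPF1-oe minus IR64, log2), for the following genes. CYCB1-3 differed by 2.48 ± 0.39 (adjusted p = 0.0011) and lost the call when only the 12 libraries compared were fitted (adjusted p = 0.094). HSP18.1 differed by -2.68 ± 0.54 (adjusted p = 0.015), with the losses given above, that in the same fit among them (adjusted p = 0.11).

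Among genes known only by ID, Os01g0132400 differed by 3.13 ± 0.66 (adjusted p = 0.024). It stood at 58.4, 40.4 and 25.1 CPM and then 45.8, 40 and 51.3 CPM in IR64, and at 13.8, 2.28 and 2.95 CPM and then 55.5, 71.6 and 58.2 CPM in OsEPF1-oe. Os06g0161800 differed by 2.84 ± 0.42 (adjusted p = 0.00071), with 19.2 to 40.5 and then 27.9 to 32.5 CPM in IR64 against 3.46 to 10.6 and then 41.3 to 48.5 CPM in OsEPF1-oe. Both had stage 4 levels in OsEPF1-oe below every stage 4 library of IR64.

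Os04g0543700 differed by -3.51 ± 0.77 (adjusted p = 0.03). In IR64 it went from 10.6 to 12.2 CPM to 1070, 602 and 350 CPM, and in OsEPF1-oe from 9.69 to 12.2 CPM to 145, 10.7 and 13.2 CPM. Os04g0613200 differed by -2.48 ± 0.39 (adjusted p = 0.0011), from 40.9 to 45.2 CPM to 838, 660 and 367 CPM in IR64 and from 34.4 to 44.2 CPM to 180, 68.5 and 60.8 CPM in OsEPF1-oe. In both genes stage 5 replicate 1 was the highest library of its line. The calls of Os01g0132400 and Os04g0543700 were each lost without any 1 of 8 libraries, at adjusted p of 0.055 to 0.12 and 0.057 to 0.14. Every one of these genes known by ID lost the call when only the 12 libraries compared were fitted. The edgeR adjusted p there was 0.28 for Os01g0132400, 0.1 for Os06g0161800 and 0.2 for Os04g0613200. Os04g0543700 also lost it with developing libraries only and with no filter on low counts, at adjusted p of up to 0.67 over its losses.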

How the results depend on the processing

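No named call of the IR64 step or of the difference between the lines changed direction under an alternative run, while PTC1 in the OsEPF1-oe step went from 3.68 to -2.23 (adjusted p = 0.27) without OsEPF1-oe stage 5 replicate 1. The 2792 genes called in the IR64 step became 2371 to 3343 with other scalings, filters, sets of libraries, DESeq2 or the replicate block (2954), of which 2291 to 2738 were shared with the reported calls. The test against 2-fold called 355, 295 higher and 60 lower, fewer because it asks for a change beyond 2-fold. Leaving out 1 library gave 1756 to 2533 genes, 1047 to 1559 higher and 709 to 974 lower, with fewer samples in the fit. The OsEPF1-oe step called 1122 genes (707 higher, 415 lower) when only the libraries compared were fitted, 2186 with the replicate block, and 1148 to 2000 (663 to 1203 higher, 485 to 797 lower) without 1 library. The 126 genes whose step differed between the lines were the least stable count, with 248 (143 higher, 105 lower) by DESeq2, 13 (9 and 4) from the compared libraries only, 123 with the replicate block, and 52 to 256 (37 to 118 and 14 to 146) without 1 library; the causes were not tested. Of 48 named calls of the IR64 step, 20 were lost without at least 1 library and 6 under another alternative than the test against 2-fold. GI, which was not called, ranged from -0.61 to 0.69 without 1 library and changed sign without stage 4 replicate 2 (0.69, adjusted p = 0.64). The replicate block changed no call of a named gene other than CAB2R, SGO1 (adjusted p = 0.05) and HSP101, which it added. At 23806729 to 30681676 counts a library, genes below a few counts could not be tested.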
